A study of Homo sapiens with 6 samples.

Results

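The genes described here encode the proteins that remove the 5′ cap from mRNAs and then degrade the uncapped message. They comprise 9 genes chosen by name: the catalytic subunit DCP2, its partners DCP1A and DCP1B, the enhancers of decapping EDC3 and EDC4, the activators LSM1 and PATL1, the 5′ to 3′ exonuclease XRN1, and EIF4ENIF1, which encodes the eIF4E-binding protein 4E-T. Of these, 8 are among the 8121 genes with a translational efficiency and 7 are among the 9570 transcripts with a ribosome occupancy. DCP1B is listed in neither table and EDC3 has a translational efficiency but no occupancy profile.

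HEK293 cells, a line of human embryonic kidney origin, were examined by ribosome profiling, in which the mRNA fragments shielded from nuclease by ribosomes (ribosome-protected fragments, RPFs) are sequenced. The labels give 1 condition, a control siRNA, with 3 RPF libraries and 3 total RNA libraries numbered 1 to 3, whereas the profiling methods of the study mention no siRNA. According to the study's methods the cells were treated with the translation inhibitor cycloheximide before lysis. Its effect on the ribosome positions below was not tested. Part of each lysate was kept for total RNA and the rest was digested with RNase I, and libraries with the same number were taken to share a lysate. The study's methods describe the procedure, which starts from plates of cells, as done in triplicate, and do not say how far apart the cultures were kept. The errors below are the spread between these 3 preparations. Of 7 genes chosen as markers of HEK293 cells, 6 are listed in the efficiency table and PAX2 is not. Of 6 markers of blood, liver, endothelial and connective tissue cells, 1 is listed, COL1A1.

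Decapping exposes the 5′ end of an mRNA to XRN1 and is the committed step of decay in the 5′ to 3′ direction, which usually follows shortening of the poly(A) tail by the Ccr4-Not complex. DCP2 hydrolyses the cap with the help of DCP1, EDC4 acts as a scaffold for both, and the LSm ring with PATL1 bridges shortened poly(A) tails to the decapping enzyme. Many of these proteins concentrate in cytoplasmic P bodies. The data report how the mRNAs of these factors were themselves translated, and not how many proteins were made or how active they were.

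Ribosomes were found at a single strong position ahead of the DCP2 reading frame, and the sequence around it is shown here because later values refer to it. In the GRCh37 genome, the build of hg19, the final 30 nt of the DCP2 5′UTR lie in exon 1 on the plus strand at chr5:112312601-112312630. The capitals mark an upstream ATG that begins 29 nt ahead of the start codon, out of frame with it.
DCP2, end of the 5′UTR: gATGcactgttcctgctgtgggtcctcatc

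The start codons of 5 members are shown with 9 nt before and 1 nt after, since the surrounding bases are known to affect how well a start codon is recognised. The capitals mark the ATG. No sequence is shown for EDC3 (gene at chr15:74922899-74988633, minus strand), which has no profile, for DCP1A (gene at chr3:53317449-53381613, minus strand), whose deposited coding sequence (CDS) length matched no annotated transcript, or for LSM1.
DCP2 (chr5:112312622-112312634, plus strand): gtcctcatcATGg
EDC4 (chr16:67907156-67907168, plus strand): gcagggcccATGg
PATL1 (chr11:59436365-59436377, minus strand): tccccaagaATGt
XRN1 (chr3:142166783-142166795, minus strand): acgatcgaaATGg
EIF4ENIF1 (chr22:31884701-31884713, minus strand): caaggagccATGg
A purine at the third base before the ATG was present in 4 of the 5, EDC4 being the exception, and a G directly after it in 4, PATL1 being the exception. Both features were present in DCP2, XRN1 and EIF4ENIF1. Among 8684 matched transcripts 85.9% had the purine, 53.2% had the G and 46.2% had both. PATL1, the member with the highest translational efficiency, and EDC4, the third, each lacked 1 of these features. LSM1, between them in efficiency, matched 1 annotated transcript but is not among the 5 shown, so its bases are not compared here.

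The first question was how efficiently each mRNA was translated. Translational efficiency is the ratio of RPFs to total RNA that the authors deposited for each gene and replicate, on a linear scale. PATL1 and LSM1, the decay activators that bind the tails of deadenylated mRNAs, were well above the median gene of 0.383, EDC4 was slightly above it and EDC3 was below it. XRN1, DCP1A and DCP2 did not pass the test against the median gene with the main settings. The members ranged from a mean of 0.210 (EDC3) to 1.37 (PATL1), and the median member (0.384) was level with the median over all gene means (0.385). Differences are given as log2(efficiency + 0.01) minus the median of all values, and were tested for all genes with limma at a false discovery rate of 0.05.

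Among the catalytic components, DCP2 had translational efficiencies of 0.370, 0.349 and 0.376 in replicates 1, 2 and 3 (0.365 ± 0.0142, SD, n = 3). DCP1A, which stimulates DCP2, had 0.387, 0.349 and 0.372 (0.369 ± 0.0192). The ranges of both genes overlapped, and they lay at neighbouring percentiles of all genes, 47.9 for DCP2 and 48.3 for DCP1A. Relative to the median gene the difference was -0.07 for DCP2 (SE 0.0513, limma adjusted p = 0.247) and -0.05 for DCP1A (SE 0.0544, limma adjusted p = 0.392). Both passed as lower when genes with a mean efficiency under 0.1 were left out (DCP2 -0.21, limma adjusted p = 0.0122, and DCP1A -0.19, limma adjusted p = 0.0204) and with the mean of all values as reference (-0.24 and -0.22). The difference of DCP2 from DCP1A was -0.02 on the log2 scale, with a 95% interval from -0.18 to 0.15. XRN1, which degrades the decapped mRNA, had 0.429, 0.343 and 0.422 (0.398 ± 0.0475). Its replicate 2 was the lowest of the 3 and fell below the values of both DCP genes. The difference from the median gene was 0.05 (SE 0.0801, limma adjusted p = 0.604), and its sign changed under those 2 settings (-0.09 and -0.12) and without replicate 1 (-0.01).

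The 2 enhancers of decapping lay on opposite sides of the median gene. EDC4, the large scaffold of the decapping complex, had translational efficiencies of 0.449, 0.467 and 0.437 (0.451 ± 0.0150). All 3 values exceeded the median, and the difference of 0.23 passed the test (SE 0.0502, limma adjusted p = 0.00803). This call was lost when genes with a mean efficiency under 0.1 were left out (0.09, limma adjusted p = 0.137) and with the mean of all values as reference (0.06, limma adjusted p = 0.278). EDC3, a scaffold that binds DCP1 and DDX6, had 0.190, 0.207 and 0.234 (0.210 ± 0.0223), all below the lowest value of EDC4. It was lower than the median gene by a log2 difference of -0.84 (SE 0.0717, limma adjusted p = 0.000176) and lay at the 27.1 percentile. EDC4 exceeded EDC3 by 1.07 on the log2 scale, with a 95% interval from 0.87 to 1.27.

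The activators PATL1 and LSM1 had the highest values. PATL1, which links the LSm ring to the decapping complex, had 1.43, 1.29 and 1.40 (1.37 ± 0.0734), at the 86.6 percentile. Its log2 difference from the median gene was 1.81 (SE 0.0552, limma adjusted p = 4.52e-06). That log2 difference corresponds to a factor of 3.52, which is not the ratio of the linear mean to the median. LSM1, the subunit that makes the cytoplasmic LSm ring distinct from the nuclear one, had 0.713, 0.791 and 0.764 (0.756 ± 0.0395), at the 72.8 percentile (0.96, SE 0.0547, limma adjusted p = 3.62e-05). The lowest replicate of PATL1 was above the highest of LSM1, and the lowest of LSM1 was above those of every other member.

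EIF4ENIF1, whose product binds eIF4E and represses translation of mRNAs bound for decapping, was the most variable member. Its efficiencies were 0.307, 0.160 and 0.333 (0.267 ± 0.0936). Replicate 2 was below every value of EDC3, while replicates 1 and 3 lay between EDC3 and the DCP genes. The SD on the log2 scale was 0.557, against 0.101 for the median gene of the table. The difference from the median gene of -0.57 (SE 0.213) had a limma adjusted p of 0.05001, narrowly on the upper side of the threshold of 0.05. With the replicate block it passed as lower (-0.57, limma adjusted p = 0.0433). Without replicate 2 the difference was -0.26 and passed the test (limma adjusted p = 0.0276).

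**Figure D1:**
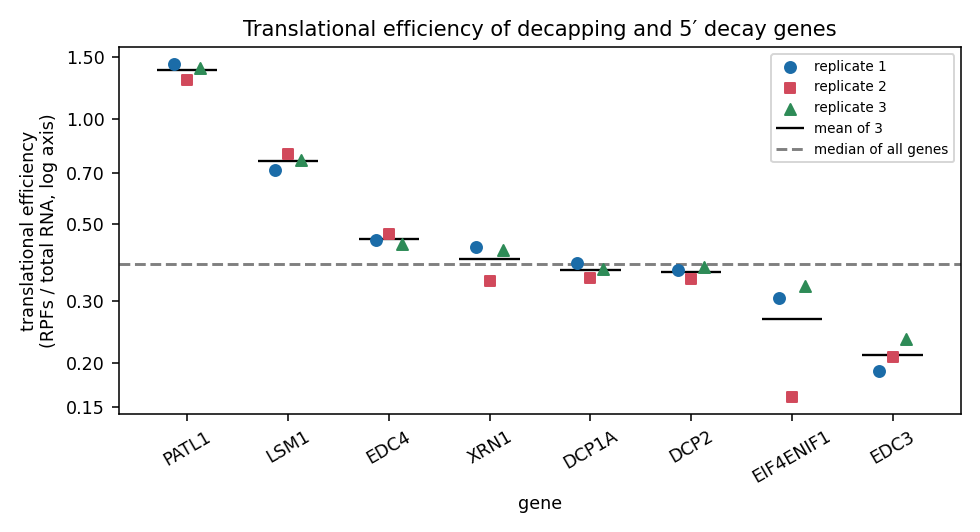
Translational efficiency (RPFs over total RNA, linear values on a log axis) of the 8 listed members, with replicates 1 to 3 as points, their mean as a bar and the median of all genes (0.383) as a dashed line. PATL1 and LSM1 stand clear of the rest, and replicate 2 of EIF4ENIF1 (0.160) lies apart from its other replicates.

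In all, 3 members were called higher and 1 lower than the median gene, and 4 were not called. Because the replicates were close (Pearson coefficients of 0.987, 0.988 and 0.990 across genes on the log2 scale), the test called 89.3% of all genes in either direction, 44.7% as higher and 44.6% as lower. Being called was thus the usual state of a gene, and with 8 members the count of 4 was not tested against that share. It was 5 with the median of each replicate removed (the replicate block), which added EIF4ENIF1 as lower. It was 6 without low genes or with the mean of all values as reference, and the split then turned to 2 higher (PATL1 and LSM1) and 4 lower (EDC3, EIF4ENIF1, DCP1A and DCP2). The shares of all genes given above belong to the main settings, so this split was not set against a share.

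To order the members, each of the 28 pairs was compared within replicates across the whole table with limma. Of these, 24 differed. With EDC3 as reference, the pairs with EDC4, LSM1, PATL1, XRN1 and EIF4ENIF1 all had the same SE of 0.124. That value is therefore not the spread of a single pair over its replicates, and all of these pairs are among the 24. The share of all genes that differed was 88.5% against DCP1A, 88.8% against DCP2, 87.4% against EDC3, 89.5% against EDC4, 92.2% against LSM1, 95.4% against PATL1 and 85.1% against XRN1. All genes compared with 1 member share the replicate noise of that member, so the pairs were also compared with the own errors of both genes from the fit against the median, a choice made after the data had been seen. That gave 21 pairs, all of them among the 24, and its intervals are quoted in the text. The order was PATL1, LSM1, EDC4, XRN1, DCP1A, DCP2, EIF4ENIF1 and EDC3.

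The neighbours PATL1 and LSM1 differed by 0.85 (95% interval 0.68 to 1.03), and LSM1 and EDC4 by 0.73 (0.57 to 0.90). XRN1 was not separated from EDC4 (-0.18, interval -0.40 to 0.03), from DCP1A (0.10, -0.12 to 0.32) or from DCP2 (0.12, -0.10 to 0.33) in either comparison. EDC4 exceeded DCP1A by 0.28 (0.12 to 0.45) and DCP2 by 0.30 (0.14 to 0.46). The 3 pairs that were lost with the own errors all involved EIF4ENIF1, namely against DCP1A (-0.52, -1.07 to 0.03), DCP2 (-0.50, -1.05 to 0.05) and EDC3 (0.27, -0.28 to 0.82). Compared within replicates, their intervals were -0.93 to -0.11, -0.96 to -0.05 and 0.03 to 0.51. The part of the dropped pairing in the loss of these pairs was not tested.

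The genes with the most similar replicate values were found by the Euclidean distance of log2(efficiency + 0.01) over the 3 replicates. GPATCH1 was nearest to DCP1A (0.0131) and CRYZ to DCP2 (0.0322). EPRS was nearest to PATL1 (0.0372), CCBL2 to LSM1 (0.0281), KIAA1586 to EDC4 (0.0430), MTURN to XRN1 (0.0820) and IER2 to EDC3 (0.0577). For 7 members between 64 and 262 genes lay within a distance of 0.2. For EIF4ENIF1 there were 0 such genes, and LRRC69 was nearest at 0.205.

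The partners of these factors gave a broader view of the decay machinery. Of the other 6 subunits of the LSm ring, 5 were listed and all 5 were called higher than the median gene, as were 44.7% of all genes, from LSM7 (0.492 ± 0.0158) and LSM4 (0.866 ± 0.0465) through LSM5 (2.32 ± 0.228) and LSM6 (2.63 ± 0.292) to LSM3 (17.7 ± 1.35, SD, n = 3). LSM1 fell between LSM7 and LSM4, in the lower part of the ring. The median difference over the 5 was 2.56 on the log2 scale, against -0.00 over all genes. Among P-body proteins that activate decapping, 3 of the 4 listed were called higher and none lower, against 44.7% and 44.6% of all genes. DDX6, the helicase of P bodies, had 1.06 ± 0.0195, below PATL1, to which it binds. LSM14B had 0.387 ± 0.0313 and was not called.

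Of 6 cap-binding proteins and partners, 3 were called higher and 3 lower, near the shares over all genes (44.7% and 44.6%). EIF4E, the cap-binding protein to which 4E-T binds, had 7.25 ± 0.315, while the mean of EIF4ENIF1 was 0.267. GIGYF1, which works with the cap-binding homologue EIF4E2 in repression, had 0.0566 ± 0.00414. Among 4 listed enzymes that hydrolyse caps or cap remnants by other routes, 2 were called higher and none lower. Over all genes the shares were 44.7% and 44.6%. The 4 enzymes ranged from NUDT3 (0.380 ± 0.00967) to NUDT12 (0.757 ± 0.0423). XRN2, the nuclear counterpart of XRN1, had 1.13 ± 0.0262, with its lowest replicate (1.11) above the highest of XRN1 (0.429). It was called higher, as was CDKN2AIPNL (1.06 ± 0.0687), while CDKN2AIP was called lower (0.298 ± 0.0362).

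For the complexes that act beside decapping the counts were near the shares over all genes, 44.7% higher and 44.6% lower. Of 9 listed subunits of Ccr4-Not, which removes the poly(A) tail, 4 were higher and 4 lower, from CNOT8 (0.143 ± 0.0175) to CNOT11 (0.870 ± 0.00920). Of 12 subunits and nucleases of the exosome, which degrades mRNA from the 3′ end, 4 were higher and 6 lower, from DIS3L (0.123 ± 0.0110) to EXOSC8 (1.31 ± 0.0871). Of 10 factors of nonsense-mediated decay, 4 were higher and 5 lower, from SMG5 (0.143 ± 0.00870) to UPF3B (2.02 ± 0.310). The median differences were 0.07, -0.23 and -0.23 on the log2 scale. These lists were read from the same limma comparison with the median gene and were not tested as sets.

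The second question was how densely ribosomes were packed along each mRNA and where they lay. The authors deposited, for each codon, in-frame RPFs normalized for library size and divided by mRNA abundance (TPM, a measure of transcripts scaled for length and depth), with the replicates combined. A level of occupancy is therefore per codon and per mRNA. Because every read adds a fixed step to the value, all 3636 values above 0 of the 7 members could be resolved into whole reads of the 3 libraries, 29602 reads in total, with 2335 to 7163 reads in the CDS of a member. The libraries are ordered within each mRNA by the worth of a read and could not be assigned to replicate numbers or followed from 1 mRNA to another. Intervals on these reads cover counting error only.

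PATL1 again had the highest level, with a mean CDS occupancy of 0.0982 (82.9 percentile), to which the libraries contributed 0.0353, 0.0311 and 0.0318. XRN1 (0.0674), DCP1A (0.0655) and EIF4ENIF1 (0.0641) followed, and the contributions of their libraries overlapped. LSM1 had 0.0566. DCP2 (0.0339, 36.8 percentile) and EDC4 (0.0290, 30.6 percentile) were lowest, below the median transcript of 0.0450, and no library of DCP2 (0.0107 to 0.0116) overlapped with those of EDC4 (0.00915 to 0.0102). The order depended on the summary used. By the median over codons XRN1 led (0.0241), followed by PATL1 (0.0185) and DCP1A (0.0183), and EIF4ENIF1 was last at 0, below DCP2 (0.0136) and EDC4 (0.00507). Relative to the mean, the spread between libraries was largest for EIF4ENIF1 (SD 20.5% of the mean), whose contributions were 0.0191, 0.0264 and 0.0187, and smallest for DCP1A (2.64%), with 0.0215, 0.0216 and 0.0225.

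The 2 readouts did not place the members in the same order. EDC4, LSM1 and DCP2 ranked higher by translational efficiency (56.1, 72.8 and 47.9 percentile) than by mean CDS occupancy (30.6, 61.2 and 36.8), and PATL1 slightly so (86.6 against 82.9), whereas XRN1, DCP1A and EIF4ENIF1 ranked lower (51.5, 48.3 and 35.5 against 69.1, 67.7 and 66.9). Across the 6912 genes in both tables the Spearman coefficient of efficiency was 0.688 with the mean and 0.389 with the summed occupancy of the CDS, both measures sharing the same RPF libraries. The formula of the efficiency ratio is not stated in the sources used here, and the difference in rank was not tested.

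**Figure D2:**
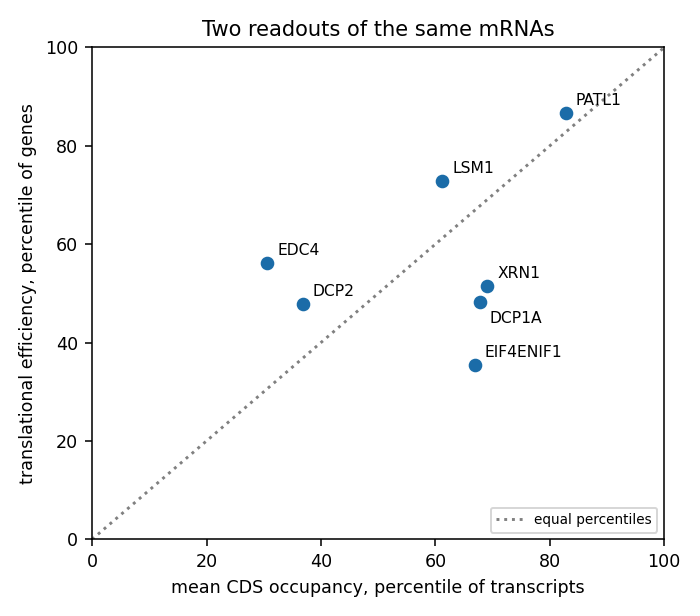
Percentile of translational efficiency among 8121 genes (vertical) against the percentile of mean CDS occupancy among 9570 transcripts (horizontal) for the 7 members in both tables, with a dotted line at equal percentiles. PATL1 is high in both (86.6 and 82.9), while XRN1, DCP1A and EIF4ENIF1 lie below the line.

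The worth of a read is inversely related to the TPM of an mRNA, so the steps also gave its relative abundance, with the median transcript set to 1. LSM1 (4.14) and DCP2 (2.74) were the most abundant messages of the group, EDC4 (1.73) was above the median, and DCP1A (0.885), XRN1 (0.696), PATL1 (0.560) and EIF4ENIF1 (0.405) were below it. PATL1 thus had the highest mean occupancy per codon and mRNA but was less abundant than 5 of the other 6, while LSM1 was the most abundant. Summed over the CDS instead, the occupancy of an mRNA was highest for XRN1 (114), ahead of PATL1 (75.7), and lowest for the short LSM1 (7.58). EIF4ENIF1 was the least abundant of the 7 and had the fewest reads in its CDS (2335), with 45.7% of its codons above 0. Fewer reads stand behind its positions than behind those of XRN1, with 7163.

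Between the ends of the CDS, XRN1 and EIF4ENIF1 had more ribosomes per codon in the first 75 codons than in the last 75, and DCP1A had fewer. The mean occupancy of the first 75 codons was divided by that of the last 75 for each mRNA. The ratio was 3.68 for XRN1 (0.127 and 0.0345) and 3.62 for EIF4ENIF1 (0.0700 and 0.0194), at the 92.7 and 92.5 percentiles of 8809 transcripts. In the separate libraries, reads gave 3.50, 2.90 and 5.04 for XRN1 and 2.61, 4 and 4.67 for EIF4ENIF1, so that every library had more than 2 times as many reads in the first window. The last window of EIF4ENIF1 rested on only 55 reads, and that of XRN1 on 168.

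For DCP1A the ratio was 0.436 (0.0492 and 0.113), with 0.336, 0.511 and 0.477 in the libraries. PATL1 was even (0.991, with libraries from 0.857 to 1.09), at the median of all transcripts (0.991). DCP2 had 1.61 and its libraries were within 1.58 to 1.64. EDC4 had 1.28 (1.13 to 1.56), but that ratio fell to 0.313 without the first 15 and last 5 codons and rose to 3.21 with windows of 50 codons, so its direction depended on a few codons. LSM1 has only 134 codons, and its windows would overlap.

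**Figure D3:**
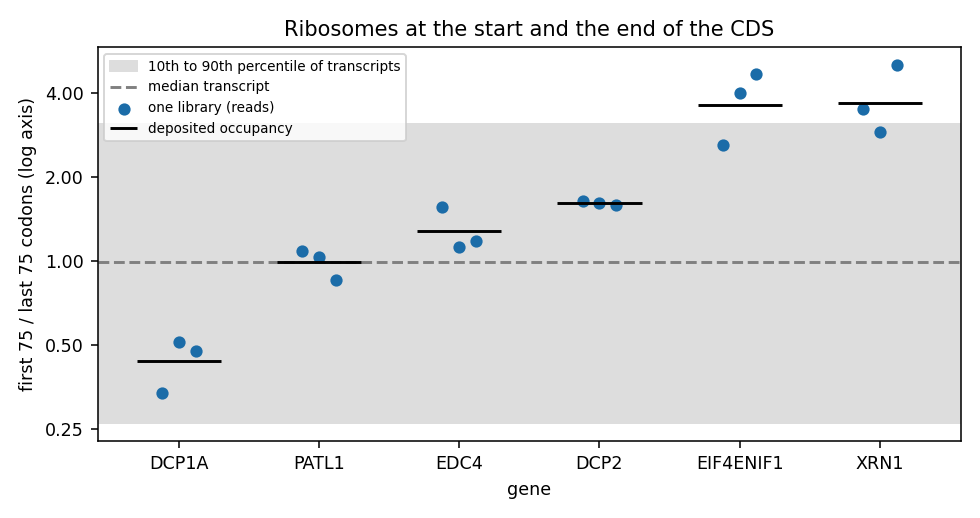
Ratio of the first 75 to the last 75 CDS codons (log axis) for 6 members, from the deposited occupancy (bar) and from the reads of each library (points), with the median transcript (0.991, dashed) and the 10th to 90th percentile of transcripts (0.262 to 3.10, grey). XRN1 and EIF4ENIF1 lie above the grey band in the deposited values, and DCP1A has 0.511 as its highest library.

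Over whole reading frames, the fall along EIF4ENIF1 was a step near the middle. Codons 1 to 246 held 35.3% and codons 247 to 493 held 37.9% of its CDS occupancy, while codons 494 to 739 held 13.6% and codons 740 to 986 held 13.3%. Codons 1 to 493 thus carried 73.1%, at the 96.1 percentile of 8847 transcripts of at least 150 codons, for which the same stretch held a median of 50.9%. XRN1 declined later, with 30.5%, 31.2%, 23.6% and 14.7% in 4 successive equal stretches. DCP1A held 34.2% in the first of these, its highest, then 21.5%, 18.5% and 25.8%, so that the low ratio of its end windows did not extend to the whole frame. In LSM1 the last stretch held 8.99%, after 34.5%, 32.2% and 24.3%. PATL1 had its low stretch in the second of the 4 (15.6%), between 32.7% and 29.3%. The 4 stretches of EDC4 were the most even, from 22.1% to 30.9%.

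**Figure D4:**
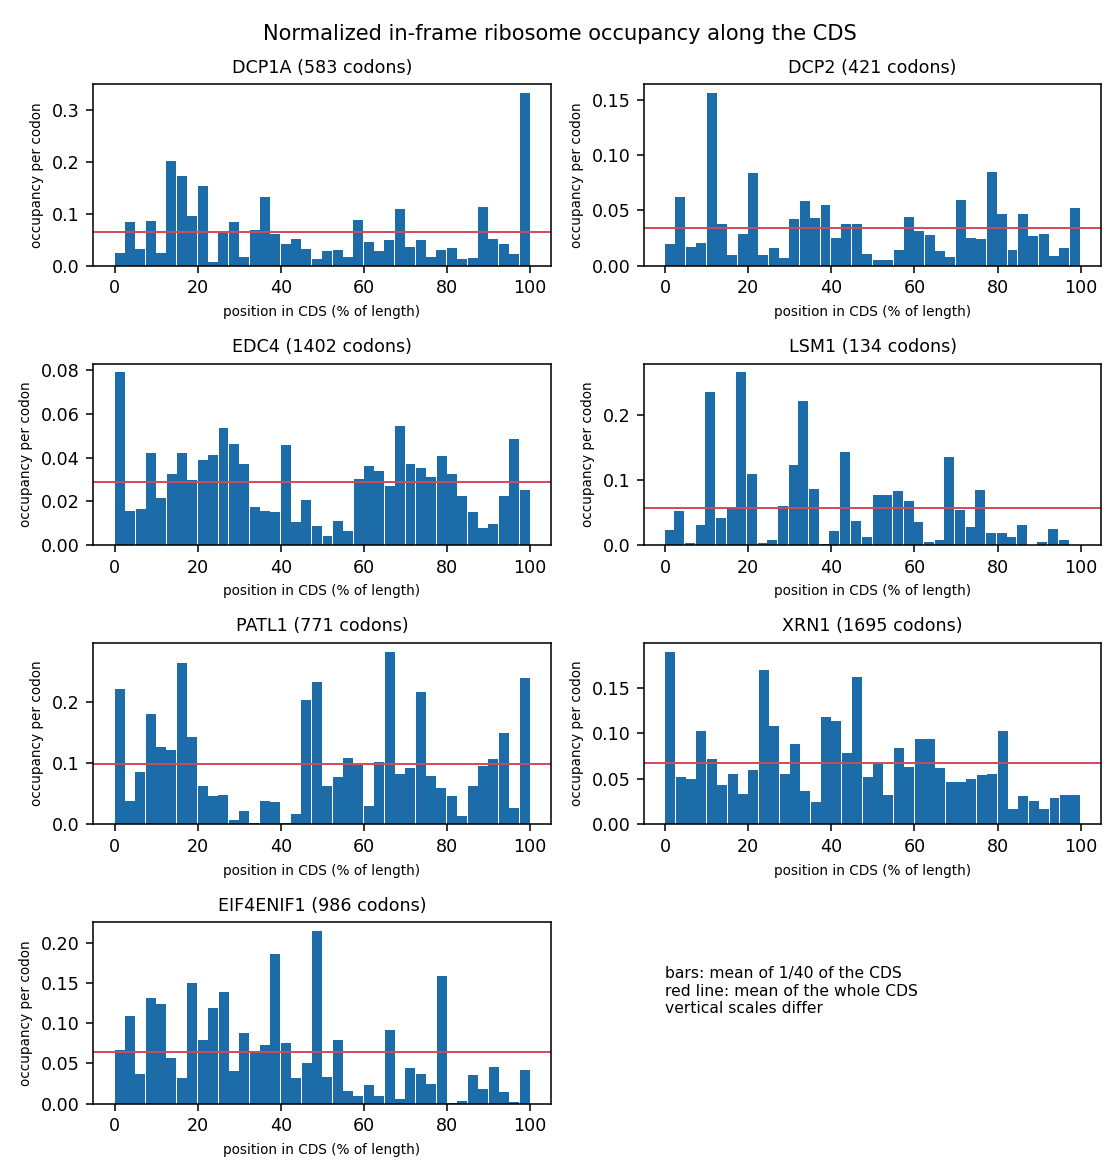
Mean normalized in-frame occupancy per codon in 40 equal stretches of the CDS of the 7 members (position as percent of CDS length, vertical scales differ), with the mean of the whole CDS as a red line. EIF4ENIF1 falls past the middle, LSM1 towards its end, and DCP1A peaks in its last stretch.

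At the end of DCP1A, codons 579 and 580 of 583 held 145 and 77 reads, and codon 579 had the highest occupancy of its CDS (1.77), with 69, 48 and 28 reads in the libraries. The last 10 sense codons averaged 6.85 times the mean of the CDS, at the 99.4 percentile of transcripts. Among the other members this value ran from 0.195 in EDC4 to 1.71 in DCP2, and the median transcript had 0.699. When the first 15 and last 5 codons were left out, the ratio of the first to the last window of DCP1A was 0.757, nearer to 1 but still below it.

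Among the codons printed below, the share of the CDS reads of an mRNA ran from 1.28% in XRN1 to 4.75% in EIF4ENIF1. For the 5 members whose start codons are printed above, the highest codon outside the first and last 5 is shown in capitals with 12 nt on either side, because these sites contributed most to the profiles.
EDC4, codon 11, exon 1 (chr16:67907183-67907209, plus strand): atcgacatcgagGACgccacgcagcac
XRN1, codon 21, exon 1 (chr3:142166712-142166738, minus strand): ctcagcgaagtgGTGaaagagcatcag
DCP2, codon 302, exon 8 (chr5:112339724-112339750, plus strand): caaaagccatatAATaatcattctgaa
EIF4ENIF1, codon 392, exon 9 (chr22:31851213-31851239, minus strand): ttggaagaccatGCTgaaaataaagtg
PATL1, codon 754, exon 18 (chr11:59406538-59406564, minus strand): tatgttgaccggCAGaaactgaacttg
The 5 codons in capitals were all different.

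EDC4 codon 11 held 229 reads, 3.60% of the CDS reads of that mRNA, and was the highest codon in each library with 112, 67 and 50 reads. Its occupancy of 1.44 was 49.8 times the mean of the CDS, at the 92.4 percentile of highest codons. EIF4ENIF1 codon 392 was likewise highest in each library, with 33, 54 and 24 reads (4.75% of CDS reads), and stood 46.9 times above its mean at an occupancy of 3.01, which was the highest of any member codon. By the ratio to the CDS mean, the highest codon of EIF4ENIF1 was at the 91.2 percentile. Those of XRN1 (52.7), PATL1 (35.0), DCP2 (13.9) and LSM1 (6.74) were near or below the median transcript. The sites in the remaining mRNAs were less stable. XRN1 codon 21 (92 reads) and PATL1 codon 754 (95 reads) led in 2 of 3 libraries each. In DCP2 codon 302 (109 reads) led in 2 libraries and codon 163 (111 reads) in the other, and the occupancies of 0.469 and 0.424 were close. In LSM1 a different codon led in each library, although codon 14 was highest in the combined values with 258 reads.

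The share of reads that lay in the 5′UTR was highest for DCP2 and LSM1. In LSM1 the 5′UTR (133 codons) is about as long as the CDS (134 codons). For DCP2 213 reads lay in the 5′UTR, 5.67% of those in the 5′UTR and CDS together (95% Wilson interval 4.97 to 6.45), with shares of 5.74%, 5.17% and 6.27% in the libraries. LSM1 had 139 reads there (4.60%, 3.91 to 5.41), and the libraries gave 4.45%, 4.86% and 4.44%. The lowest library of DCP2 was above the highest of LSM1. The other members had 0.0260% to 0.593%, from 1 read each in DCP1A and PATL1 to 38 in EDC4. Reads out of frame with the CDS are not in the deposited values, so ribosomes in other frames of a 5′UTR were counted only as far as their fragments fell in this frame.

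In DCP2 the 5′UTR reads were concentrated at 1 site. The tenth codon position before the start, which begins 30 nt ahead of it, held 141 reads (52, 49 and 40 in the libraries), 66.2% of those in the 5′UTR. Its occupancy of 0.587 exceeded that of every DCP2 CDS codon, and was 17.3 times the CDS mean, at the 94.4 percentile of the highest 5′UTR codons of 8407 transcripts. The upstream ATG printed above begins 1 nt after the first base of this position. The 30 nt and 1 nt assume that the deposited 5′UTR positions end directly at the start codon, which was not checked. This ATG lies in a frame other than that of the deposited reads. It opens a reading frame of 71 codons that runs past the DCP2 start codon and ends with TAA 184 nt after the first base of it. An ATG on the sense strand of this window was found in 1 of 5 members with a matched window and in 9.27% of 7098 transcripts.

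Per codon, the 5′UTR of DCP2 had 0.359 of the occupancy of its CDS (90.3 percentile, median transcript 0.0315), and 0.117 without the highest position. By this measure EDC4 (0.108) and XRN1 (0.106) were above LSM1 (0.0486), and DCP1A (0.00845) and PATL1 (0.00382) were lowest. The value of XRN1, from 16 reads, was 0.0633 without its highest position and 0.0656 without the 5 codons next to the start. EIF4ENIF1 had 0.0675 from 10 reads, which was 0.0340 without its highest position, against 0.0349 for LSM1, and 0 without the 5 codons next to the start. The 5′UTR reads of LSM1 included 40 at the position 15 codons and 31 reads at the position 4 codons before the start. Beyond the stop codon, reads were few in every member. The 3′UTR held 7 reads in DCP2, 5 in DCP1A, 4 in LSM1, 1 each in PATL1, XRN1 and EIF4ENIF1, and 0 in EDC4.

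**Figure D5:**
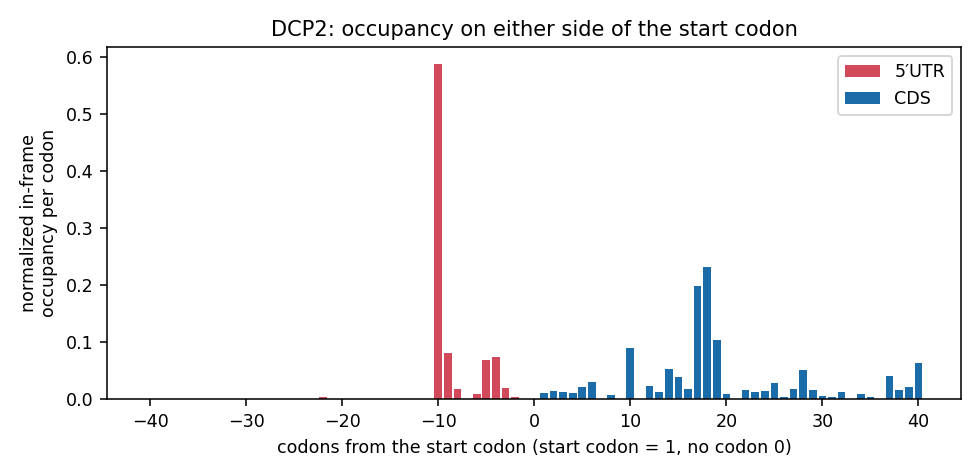
Normalized in-frame occupancy per codon of DCP2 from 40 codons before to 40 codons after the start codon, with the 5′UTR in red and the CDS in blue. The position 10 codons before the start (0.587) is the highest bar, followed by codons 17 and 18 of the CDS.

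Part of the CDS of some members is found in other annotated transcripts, where reads may not be assigned to a single gene. The share of 30 nt windows also present in another gene was 18.3% for EDC4, 17.9% for PATL1 and 1.88% for LSM1, the last in the pseudogene LSM1P1. It was 0 for DCP1A, DCP2, EDC3, XRN1 and EIF4ENIF1. The values of EDC4 and PATL1 carry this uncertainty, and its part in them was not tested.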

How the data were processed

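According to the submitters' processing notes the reads were handled with cutadapt 1.16, Bowtie 1.1.2, TopHat2 2.1.1 and HTSeq 0.9.1 on hg19, while the methods name Hisat2 for total RNA, and PCR duplicates were removed with molecular identifiers. For each gene the authors kept its most abundant transcript. The deposited translational efficiency is a linear ratio per gene and replicate, and the sources used here do not state how it was formed. The deposited occupancy is a list of in-frame RPFs per codon that the authors normalized for library size and TPM, with the replicates combined, so it has no replicate error of its own.

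Efficiencies were tested with limma 3.58.1 (R 4.3.3) on log2(value + 0.01) for all genes against the median of all values, two-sided, with Benjamini-Hochberg adjustment and no filter on low values. Per the labels and methods, part of a lysate was kept for total RNA. From their shared number, which the efficiency columns also carry, an RPF and a total RNA library were taken to come from one lysate and to enter one ratio. Pairs of members were fitted as within-replicate differences. The comparison with the own errors of both genes was not paired. DCP1B is not listed, so the 28 pairs of the other members were compared. The test against the median gene, and the recovery of reads described next, were checked on artificial data with known answers.

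Whole reads were recovered from the occupancy values at a relative tolerance of 1e-11. The 3 steps were found for 9454 of 9570 transcripts. For 31 transcripts a list broken over lines was rejoined. Depth is given by these reads, and the total depth of the libraries was not analysed here. Transcripts were matched to GENCODE 44 lifted to GRCh37 by symbol and CDS length. These steps used Python 3.11.15 with scipy 1.17.1, pandas 2.3.3 and numpy 2.4.6.

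The genes, the lists of partners and the settings were chosen with earlier results of these data known. Named were all members, the highest and lowest gene of each list, the gene nearest to each member and the highest codon of each member. LSM4, LSM5, LSM6, CDKN2AIPNL and the replicates of XRN2, the ends of DCP1A and the upstream ATG were named after their values had been seen, as were the comparisons of summed occupancy, over codons 1 to 493 and over the last 10 sense codons.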

Additional observations from a re-analysis of the deposited data

How the results depend on the processing

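Of 132 alternative values, 90 kept their direction and their side of the threshold, moved by less than the spread between libraries or, for counts of members or pairs, stayed within 1.5 times, 3 changed direction, 10 passed the limma test in addition, 2 no longer passed it, and 27 occupancy values moved by more than that spread. The count of members called (4) became 5 with a pseudocount of 0.1 and 5 with the replicate block (the median gene of each replicate removed), stayed at 4 with a pseudocount of 1, and was 6 (2 higher and 4 lower) both without genes of mean efficiency under 0.1 and with the mean of all values as the reference. Both of these raise the reference level. EDC4 then lost its call (limma adjusted p = 0.137 and 0.278), while DCP1A (0.0204 and 0.0128) and DCP2 (0.0122 and 0.00775) passed as lower. XRN1, which was never called, changed sign from 0.05 to -0.0920 and -0.120 under these settings, and ranged from -0.0141 without replicate 1 to 0.140 without replicate 2. EIF4ENIF1 passed as lower with a pseudocount of 0.1 (0.0412), without low genes (0.0251), with the replicate block (0.0433) and with the mean as reference (0.0216). Leaving out 1 replicate gave 4 to 5 members called, the added call being EIF4ENIF1 without replicate 2 (0.0276) or replicate 3 (0.0254). The 24 pairs were 23 to 24 with other pseudocounts, without low genes or without 1 replicate. With the own errors of both genes, an unpaired alternative chosen after the data had been seen, they were 21.

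Of the positional values, the first to last ratio of EDC4 crossed 1 (3.21 with 50 codons, 0.313 without the first 15 and last 5, 0.854 without the highest codon of each window). That of PATL1 was 0.828 and 0.839, that of DCP2 2.02 and 1.94 under the first 2 of these settings, and XRN1 reached 5.44 with 50 codons. The 10 reads in the 5′UTR of EIF4ENIF1 all lay within 5 codons of the start, so its 5′UTR occupancy was 0 without them. Medians over codons were far below the means in all 7 members (0 to 0.0241).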
